A study of Mus musculus with 9 samples.

Results

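The 10 genes described here encode enzymes of glycolysis and glucose carriers, namely Hk2, Pfkp, Aldoa, Tpi1, Pgk1, Eno1, Pkm, Ldha, Slc2a1 and Slc2a3. They were chosen by symbol from a table of gene expression with 15074 named genes, and all 10 were in it. Gapdh, the glycolytic enzyme often used as a reference gene, was left out because its values jumped in 1 library, where 1KO at day 4 had 168 FPKM and the other libraries 7.75 to 21.1 FPKM. The table came from 9 RNA-seq libraries of mouse embryonic stem cells (ESCs), 1 library for each of 3 lines at days 0, 2 and 4 of differentiation. WT was the J1 line. 1KO was a Dnmt1-/- line made from J1, which lacks the maintenance DNA methyltransferase. 1KO+1CI was 1KO carrying a transgene for DNMT1 with an inactivating change in its catalytic domain, driven by the CAG promoter and linked through an IRES to zeocin resistance. All 3 lines were grown with LIF and serum on mitomycin C-treated embryonic fibroblasts. For differentiation, feeders were removed by plating on gelatin, embryoid bodies formed over 1 day without LIF, and the cells were then kept as adherent cultures. Each line stands for its genotype alone, the transgenic line was an isolated clone, and no condition was repeated, so no value below has a replicate SD.

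Glycolysis turns glucose into pyruvate in the cytosol, and lactate dehydrogenase turns pyruvate into lactate and restores the cofactor that lets the pathway go on. Pluripotent cells are known for a high glycolytic rate, and the epiblast-like state that ESCs enter on leaving LIF is known to lean on glycolysis more than the naive state does. Many genes of the pathway are textbook targets of the hypoxia-inducible factors (HIF) and of MYC, which both bind E-box-like DNA motifs.

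The lines were as labelled at the targeted gene. Dnmt1 had 48.5 to 80.4 FPKM over the WT libraries, against 12.3 to 17.4 FPKM over those of 1KO. In 1KO+1CI, where endogenous and transgene reads are not separated, it ranged from 129 to 315 FPKM. FPKM scales fragments by transcript length and by the mapped fragments of the library. The annotation and the treatment of reads with several matches are not known, so levels of different genes can be compared only roughly. Pluripotency markers, of which 7 of 7 were measured, summed to 898 to 1733 FPKM, with Pou5f1 alone at 632 to 1008 FPKM. Of these, 5 fell between day 0 and day 4 (median of the 7 -3.07), such as Klf4 from 30.3 to 0.749 FPKM and Esrrb from 96.5 to 3.81 FPKM in WT. At day 2 the 7 summed to 1733 FPKM (WT), 1243 FPKM (1KO) and 1049 FPKM (1KO+1CI). The 4 epiblast markers summed to 115 to 138 FPKM at day 0 and 376 to 560 FPKM at day 4. Their day 2 sums were 170 FPKM (WT), 348 FPKM (1KO) and 368.5 FPKM (1KO+1CI), of which Dnmt3b alone was 114.5, 224 and 220 FPKM. Feeder fibroblast markers, of which 8 of 9 were measured and none was at 0 in any library, had day 0 sums of 107 FPKM (WT), 220 FPKM (1KO) and 258 FPKM (1KO+1CI). At days 2 and 4 they summed to 14.0 to 32.6 FPKM. The 5 primitive streak markers had day 4 sums of 23.0 FPKM (WT), 158 FPKM (1KO) and 150 FPKM (1KO+1CI). The part of these cell populations in the results below was not tested, and in bulk RNA fewer cells of a type and less RNA per cell cannot be told apart.

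Between 0.805% and 2.26% of all FPKM in a library belonged to the 10 genes. The lowest share was that of WT at day 2 and the highest that of 1KO at day 4. WT went from 1.80% at day 0 through 0.805% at day 2 to 1.94% at day 4. In 1KO the shares were 1.23%, 1.26% and 2.26%, and in 1KO+1CI they were 1.36%, 1.21% and 1.69%. By median level over the 9 libraries the order was Pkm (1430 FPKM), Eno1 (1153 FPKM), Aldoa (888 FPKM), Ldha (696 FPKM), Pgk1 (557 FPKM), Slc2a1 (278 FPKM), Tpi1 (277 FPKM), Slc2a3 (269 FPKM), Hk2 (44.3 FPKM) and Pfkp (38.6 FPKM). Neighbours in this order overlapped in their ranges, except that the lowest Slc2a3 value (96.0 FPKM) was above the highest Hk2 value (52.0 FPKM). Hk2 and Pfkp, which act at early, regulated steps, were thus at the bottom of the order. Ldha varied most, 8.45-fold between its lowest and highest library, and Hk2 least, 1.47-fold.

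Glucose enters these cells through facilitative carriers. Slc2a1 (GLUT1; mm10 chr4:119108711-119137983, plus strand), the widely expressed carrier, was at 322, 115 and 456 FPKM in WT at days 0, 2 and 4. It was at 235, 223 and 641 FPKM in 1KO, and 1KO+1CI had 187, 278 and 498 FPKM. The day 4 value was the highest in each line, and WT at day 2 was the lowest of the 9 libraries. Slc2a3 (GLUT3; chr6:122727809-122801640, minus strand), a high-affinity carrier, was at 467, 156 and 204 FPKM in WT, 269, 99.7 and 481 FPKM in 1KO, and 1KO+1CI had 282, 96.0 and 476 FPKM. Day 2 was the lowest day in every line for Slc2a3, and at day 4 both lines without active DNMT1 were above their own day 0 while WT was below its own.

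Hk2 and Pfkp act at the early steps. Hk2 (chr6:82725025-82774454, minus strand) encodes a hexokinase that traps glucose as glucose phosphate, and its values were 44.3, 35.4 and 43.7 FPKM in WT, 38.8, 46.2 and 52.0 FPKM in 1KO, and 1KO+1CI had 35.6, 47.7 and 48.6 FPKM. In WT day 2 was its lowest day, whereas in both other lines day 0 was. Pfkp (chr13:6579768-6648777, minus strand) encodes the platelet-type phosphofructokinase, which catalyses a committed step, and was at 38.6, 37.3 and 15.1 FPKM in WT, 41.7, 48.3 and 21.3 FPKM in 1KO, and 1KO+1CI had 58.9, 40.7 and 14.9 FPKM. Pfkp had its lowest value at day 4 in each line, and its day 4 values did not overlap with those of the other days. No other of the 10 genes had its lowest value at day 4 in every line.

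Aldoa and Tpi1 act where the sugar is split. Aldoa (chr7:126795234-126800751, minus strand), the aldolase that cleaves fructose bisphosphate, was at 1349, 441 and 1114 FPKM in WT, 888, 812 and 1142 FPKM in 1KO, and 1KO+1CI had 916, 753 and 782 FPKM. The WT day 2 library was far below the other 8, which spanned 753 to 1349 FPKM. Tpi1 (chr6:124810586-124814296, minus strand), which interconverts the triose phosphates, was at 418, 141 and 569 FPKM in WT, 244, 277 and 572 FPKM in 1KO, and 1KO+1CI had 251, 239 and 355 FPKM. For Tpi1 too, WT at day 2 was the lowest library, and day 4 was the highest day in each line.

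The remaining enzymes lead from the triose phosphates to lactate. Pgk1 (chrX:106187100-106203699, plus strand), which makes ATP, was at 853, 206 and 935 FPKM in WT, 481, 358 and 1155 FPKM in 1KO, and 1KO+1CI had 588, 306 and 557 FPKM. Day 2 was its lowest day in all 3 lines, and 1KO+1CI at day 4 stayed below its own day 0. Eno1 (chr4:150236721-150248879, plus strand), the enolase, was at 1405, 939 and 1604 FPKM in WT, 983, 1153 and 1659 FPKM in 1KO, and 1KO+1CI had 1048, 1125 and 1439 FPKM. Its 3 day 4 values were above all of its other values. Pkm (chr9:59656368-59679375, plus strand), the pyruvate kinase of most tissues, whose splice forms the table does not separate, was at 1624, 854 and 1846 FPKM in WT, 1386, 1268 and 1866 FPKM in 1KO, and 1KO+1CI had 1430, 1228 and 1504 FPKM. Ldha (chr7:46841475-46855627, plus strand), the lactate dehydrogenase subunit that favours lactate formation, was at 862, 222 and 1706 FPKM in WT, 633, 664 and 1878 FPKM in 1KO, and 1KO+1CI had 696, 615 and 1150 FPKM. Day 4 was the highest day for Ldha in every line, and its 3 day 4 values lay above the other 6. By symbol (the gene's own with -ps or -rs added), the reference annotation names 2 pseudogenes of Aldoa, 3 of Pgk1 and 2 of Ldha. None of them is in the table, so reads shared with such copies make the levels of these genes less certain. Copies under other names were not searched for, so the other genes may have them too.

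**Figure D1:**
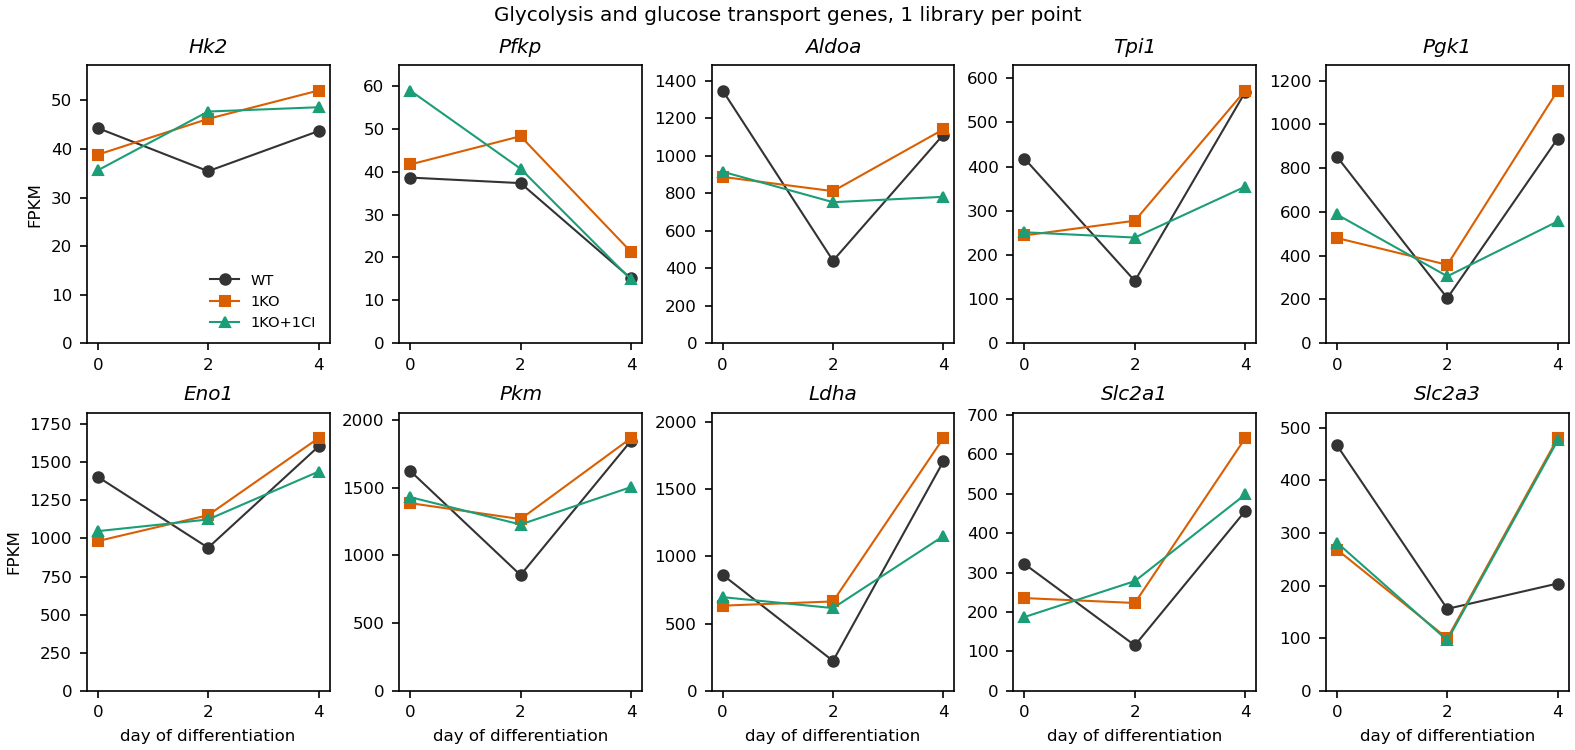
FPKM (linear axes from 0) of each of the 10 genes against day of differentiation, with 1 point per library and a line for each cell line (WT circles, 1KO squares, 1KO+1CI triangles). WT dips at day 2 for most genes, as for Ldha (862, 222 and 1706 FPKM, against 633, 664 and 1878 FPKM in 1KO), and Pfkp is lowest at day 4 in every line.

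The DNA before the RefSeq start sites of these genes was searched for the letters ACGTG on either strand (CACGT on the other). These letters are the core that HIF and several E-box factors share. A window ran from 250 bases before to 50 bases after a start, and matches were counted in the 250 bases before it. Such letters were found for 6 of the 9 genes with a window (Slc2a1, Hk2, Ldha, Aldoa, Pkm and Pgk1) and for 18.5% of all 27025 genes with one. Counted by start site they were in 7 of 15 windows of the 10 genes (46.7%) and in 16.6% of all 32851 windows. The shares over all genes were not matched for expression or base content. Tpi1, Eno1 and Pfkp had no match, while Hk2, which varied least (1.47-fold), had 2. A match is a description of the sequence and does not show a bound site, and its part in the courses was not tested. No window was at hand for Slc2a3. The 160 bases before the start are given 5′ to 3′ on the gene's strand, for 4 genes with a match in a stretch that overlaps no annotated exon, because Ldha and Pgk1 had the largest differences between day 0 and day 2 in WT and Aldoa and Hk2 stand for the upper pathway. Capitals mark the matched letters, and the coordinates are those of GRCm38.p6.
Ldha, chr7:46845644-46845803, plus strand: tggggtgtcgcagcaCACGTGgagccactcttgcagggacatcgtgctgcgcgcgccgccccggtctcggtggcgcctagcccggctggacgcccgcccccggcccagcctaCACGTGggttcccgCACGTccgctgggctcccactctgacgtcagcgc
Pgk1, chrX:106186940-106187099, plus strand: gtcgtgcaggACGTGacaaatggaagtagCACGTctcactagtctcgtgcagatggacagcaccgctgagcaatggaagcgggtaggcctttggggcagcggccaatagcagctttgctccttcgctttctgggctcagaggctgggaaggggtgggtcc
Aldoa, chr7:126799255-126799414, minus strand: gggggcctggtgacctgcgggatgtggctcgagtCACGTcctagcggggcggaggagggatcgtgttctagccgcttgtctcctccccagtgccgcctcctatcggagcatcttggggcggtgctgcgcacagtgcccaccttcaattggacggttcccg
Hk2, chr6:82774455-82774614, minus strand: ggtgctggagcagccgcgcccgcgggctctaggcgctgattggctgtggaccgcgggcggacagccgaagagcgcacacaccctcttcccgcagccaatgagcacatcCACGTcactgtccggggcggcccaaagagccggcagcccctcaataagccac
Ldha had 3 matches, which began 145, 48 and 34 bases before the start, and the first 2 of them read CACGTG, so that both strands carry the letters. Pgk1 had 2 (150 and 131 bases before the start) and Aldoa had 1 in the stretch shown (126 bases). Hk2 had 2, at 52 bases and, outside the stretch shown, at 226 bases before the start.

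The first comparison asked how the genes moved with differentiation over the 3 lines. From day 2 to day 4, 7 of the 10 genes rose, namely Ldha, Slc2a3, Pgk1, Slc2a1, Tpi1, Pkm and Eno1, and Pfkp fell. Among all 13288 genes tested, 12.5% were called higher and 13.3% lower. Fitted differences are on the log2(FPKM + 1) scale with line and day in the fit. The calls are those of limma at an adjusted p under 0.05. In this fit the 3 lines serve as the repeats of a day, but 1KO+1CI was derived from 1KO, so they are not independent. Ldha rose by 1.78 ± 0.37 (SE; adjusted p = 0.0124), a 3.43-fold difference, Slc2a3 by 1.65 ± 0.37 (0.0163) and Pgk1 by 1.57 ± 0.31 (0.00945). The carrier Slc2a1 rose by 1.44 ± 0.31 (adjusted p = 0.0135) and Tpi1 by 1.20 ± 0.30 (0.0236). The abundant enzymes moved less, Pkm by 0.65 ± 0.17 (adjusted p = 0.0273) and Eno1 by 0.55 ± 0.16 (0.0357). Pfkp fell by 1.26 ± 0.17 on the log2 scale (adjusted p = 0.00267), a 2.40-fold lower level. Aldoa (0.63 ± 0.27, adjusted p = 0.117) and Hk2 (0.16 ± 0.14, adjusted p = 0.401) did not pass. The median difference over the 10 genes was 0.93, beside -0.00027 over all genes. Over the same step 5 of 5 primitive streak markers rose (median 2.57) and 5 of 7 pluripotency markers fell (median of the 7 -1.35), and their part was not tested. The count of 8 called was 1 without 1KO at day 4, 4 without 1KO at day 2 and 5 without WT at day 4, where 9.20%, 8.98% and 25.1% of all genes were called instead of 25.7%, and the median was 0.57 without WT at day 2. Eno1 lost its call when every library was scaled to a common sum (adjusted p = 0.0564) and when no minimum level was asked for (0.0517). Pfkp kept its call with each of the 9 libraries left out in turn.

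From day 0 to day 2, Pgk1 and Slc2a3 fell and the other 8 genes did not pass, where 17.5% of all genes were called. Slc2a3 fell by 1.51 ± 0.37 (adjusted p = 0.0293) and Pgk1 by 1.14 ± 0.31 (adjusted p = 0.0384). The median over the 10 genes was -0.45, beside 0.016 over all genes, and 9 of the 10 differences were negative. Without WT at day 2 the median was -0.11 and Slc2a3 was the gene still called (11.1% of all genes). No gene was called without WT at day 0, 1KO at day 2, 1KO+1CI at day 0 or 1KO+1CI at day 2. In those runs 14.7%, 3.81%, 6.36% and 6.74% of all genes were called, in that order. Without 1KO at day 0, 1 was called (8.08% of all genes). Between day 0 and day 4, Slc2a1 rose by 1.12 ± 0.31 (adjusted p = 0.0318) and Pfkp fell by 1.38 ± 0.17 (adjusted p = 0.00121), where 25.8% of all genes were called. Ldha (1.09, adjusted p = 0.0636), Tpi1 (0.72, 0.115) and Eno1 (0.47, 0.0604) did not pass. The count for day 4 against day 0 was 6 without WT at day 0 (30.1% of all genes called) and 5 without WT at day 2 (26.3%). It was 1, Pfkp alone, without 1KO at day 0, 2 or 4 or 1KO+1CI at day 0 or 4, where 10.6% to 18.7% of all genes were called. Without WT at day 4 the count was still 2 (24.5% of all genes), but Slc2a1 lost its call (adjusted p = 0.0691) and Slc2a3 gained one (0.78, adjusted p = 0.00156). Slc2a1 thus kept its call in 3 of 9 such runs and Pfkp in 9. Feeder markers fell over the same interval, 8 of 8 passing at day 2 and at day 4 against day 0, with median differences of -2.17 and -2.69, and their part in these day 0 comparisons was not tested. Scaling to a common sum moved the split of all calls, from 1656 higher and 1763 lower to 1225 and 2459 for day 4 against day 2, and from 1150 and 1173 to 1630 and 956 for day 2 against day 0.

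Each line was then read by itself, first from day 0 to day 2. These are differences between single libraries with no test, and a gene is counted past 0.5 on the log2(FPKM + 1) scale. In WT all 10 genes were lower at day 2 and 8 of them past 0.5, where 16.3% of all genes were lower by as much. The median was -1.52, with Pgk1 (-2.04, a 4.13-fold lower level), Ldha (-1.95, 3.88-fold lower) and Aldoa (-1.61, 3.06-fold lower) at the far end and Hk2 (-0.31) and Pfkp (-0.05) inside the threshold. In 1KO only Slc2a3 (-1.42) was lower past 0.5 (background 12.2%) and the median was -0.0042. In 1KO+1CI Slc2a3 (-1.55), Pgk1 (-0.94) and Pfkp (-0.52) were lower past 0.5 (background 11.5%), Slc2a1 was higher (0.57), and the median was -0.20. From day 2 to day 4, which shares the day 2 library with the step before, 7 genes were higher past 0.5 in WT (background 15.3%), 7 in 1KO (15.7%) and 5 in 1KO+1CI (13.3%). Ldha at day 4 was 7.67 times its day 2 level in WT, against 2.83 times (1KO) and 1.87 times (1KO+1CI). Slc2a3 had the opposite order, with 1.31 times in WT against 4.82 times (1KO) and 4.96 times (1KO+1CI).

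The 2 lines without active DNMT1 were also set against WT at each day. Both comparisons use the same WT library, so they are not independent. At day 0, 5 of the 10 genes were lower past 0.5 in 1KO (Pgk1, Slc2a3, Tpi1, Aldoa and Eno1) where 12.3% of all genes were, and 5 in 1KO+1CI (Slc2a1, Tpi1, Slc2a3, Aldoa and Pgk1) where 13.9% were. Pfkp was higher in 1KO+1CI at day 0 (0.60). At day 2, 6 genes were higher past 0.5 in 1KO (background 7.87%) and 6 in 1KO+1CI (10.2%), in both cases Ldha, Tpi1, Slc2a1, Aldoa, Pgk1 and Pkm. Ldha was 2.99-fold higher in 1KO and 2.77-fold higher in 1KO+1CI than in WT, and Slc2a1 was 1.93-fold and 2.41-fold higher. Slc2a3 went the other way at day 2, with WT 1.56-fold above 1KO and 1.62-fold above 1KO+1CI. Epiblast and pluripotency marker sums, given above, also differed between these day 2 libraries, and their part was not tested. At day 4, Slc2a3 was the gene past 0.5 in 1KO (1.23, background 8.44%), and it was as far above WT in 1KO+1CI (1.22). There 4 genes, Pgk1 (-0.75), Tpi1 (-0.68), Ldha (-0.57) and Aldoa (-0.51), were lower than WT past 0.5 (background 9.17%). Against 1KO the transgenic line was lower past 0.5 for the same 4 at day 4, where 3.79% of all genes were, with Pgk1 at 557 against 1155 FPKM and Ldha at 1150 against 1878 FPKM. At day 4 each of the 10 genes had a lower level in the transgenic line than in 1KO, from -0.013 for Slc2a3 to -1.05 for Pgk1, and 1 library of each line is behind this. Marker sums differed between the same libraries, and their part was not tested. The 5 primitive endoderm markers were at 8.48 against 5.12 FPKM and the feeder markers at 31.7 against 17.4 FPKM. The epiblast markers were at 376 against 516 FPKM, of which Dnmt3b alone was 226 against 328 FPKM. Among them Pou3f1 went the other way, at 48.52 against 42.05 FPKM. At days 0 and 2 none of the 10 differed past 0.5 between these lines, and the differences ran from -0.33 to 0.49.

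**Figure D2:**
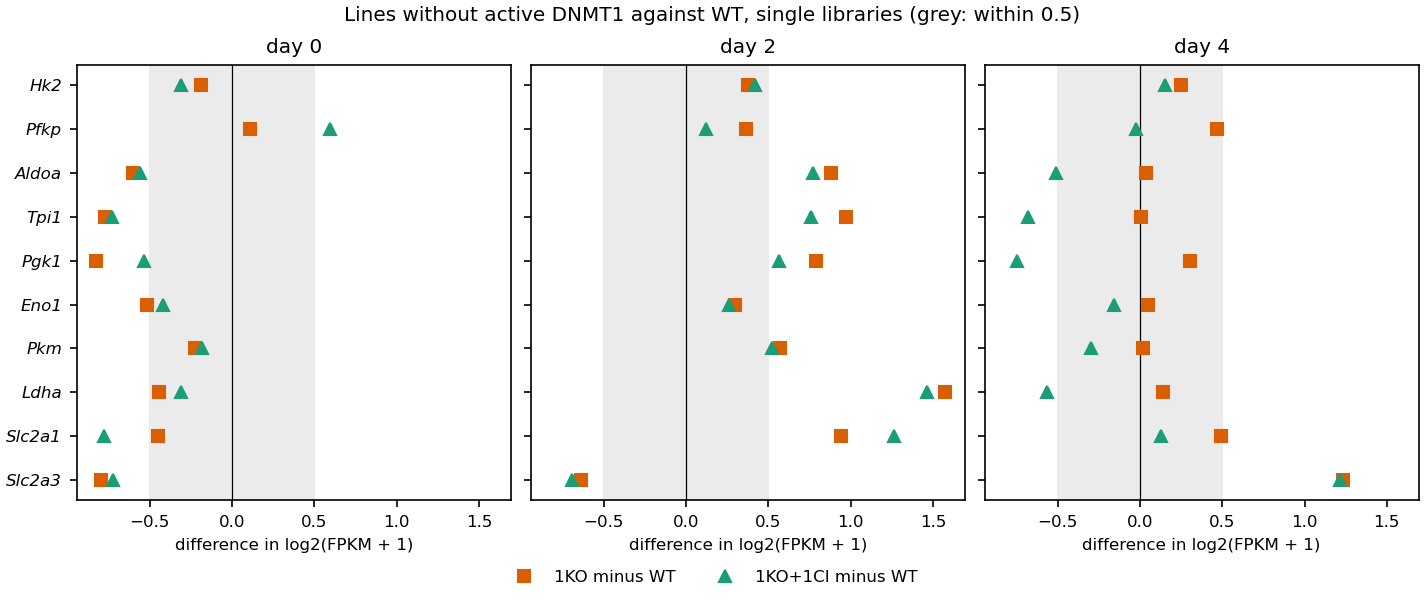
Difference from WT in log2(FPKM + 1) (x axis) of each gene in 1KO (squares) and 1KO+1CI (triangles) at days 0, 2 and 4, single libraries, with the span within 0.5 in grey. Most genes lie left of 0 at day 0 (medians -0.48 in both lines) and right of 0 at day 2 (medians 0.68 and 0.54), and Slc2a3 lies on the opposite side from the rest at day 2.

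Whether the course over days differed from that of WT was tested with the 2 lines without active DNMT1 (the mutant lines), whose difference from each other gave the error. The transgenic line was derived from 1KO, so they are not independent lines, and WT had 1 library a day, so that its own variation enters no p-value. The change from day 0 to day 2 was higher in them than in WT by a median of 1.06 over the 10 genes, beside 0.019 over all genes. No gene passed adjustment over all genes, of which 0.753% were called, while 8 of 10 had an unadjusted limma p under 0.05, against 16.8% of all genes. Ldha had a difference of 1.90 (95% interval 1.15 to 2.64, adjusted p = 0.0545), Slc2a1 of 1.72 (1.05 to 2.39, adjusted p = 0.0540), Tpi1 of 1.62 (0.96 to 2.27, 0.0603) and Aldoa of 1.41 (0.82 to 1.99, 0.0603). Pgk1, whose 2 mutant courses lay further apart, had 1.36 (0.28 to 2.43, adjusted p = 0.203), and Pkm, Eno1 and Hk2 had 0.75, 0.75 and 0.64. For Slc2a3 (0.09, interval -0.26 to 0.45) and Pfkp (-0.11, interval -0.97 to 0.75) no difference was detectable. The count of 0 is sensitive, since 8 genes were called without 1KO at day 4 or without 1KO+1CI at day 4, and 2 without 1KO+1CI at day 0. Over all genes, 7.41%, 7.34% and 0.474% were called in these runs. The count was 2 with a minimum of 10 FPKM (Ldha and Slc2a1), and 1 with a common sum (Slc2a1), with median-ratio scaling (Slc2a1) and with limma's robust prior (Aldoa). Those settings called 1.2%, 0.624%, 0.813% and 0.926% of all genes, in that order. Leaving out a day 4 library of a mutant line changes neither the values nor the libraries of this contrast, but only the estimate of the spread. In the same contrast 2 of 4 epiblast markers were called higher (list median 1.45). Of the 7 pluripotency markers 1 was called lower, and all 7 differences were negative (list median -0.90). The part of these markers was not tested.

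The change from day 0 to day 4 differed for Slc2a3, by 1.99 (95% interval 1.63 to 2.34, adjusted p = 0.00607), where 3.12% of all genes were called. WT had 467 FPKM at day 0 and 204 FPKM at day 4, whereas 1KO went from 269 to 481 FPKM and 1KO+1CI from 282 to 476 FPKM. Slc2a3 kept this call without each library that could be left out, and over the other settings run its adjusted p was 0.00415 to 0.0209. WT at day 0 and WT at day 4 could not be left out. These runs therefore cannot show how far the call rests on those WT values. Slc2a1 had 0.92 (adjusted p = 0.128), Pgk1 0.46 (0.593) and Ldha 0.16 (0.798). The count was 4 without 1KO+1CI at day 4, with Slc2a1, Pgk1 and Tpi1 added, where 8.89% of all genes were called. Primitive streak markers moved in the same contrast, 4 of 5 being called higher with a list median of 2.31, and their part in the Slc2a3 result was not tested.

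**Figure D3:**
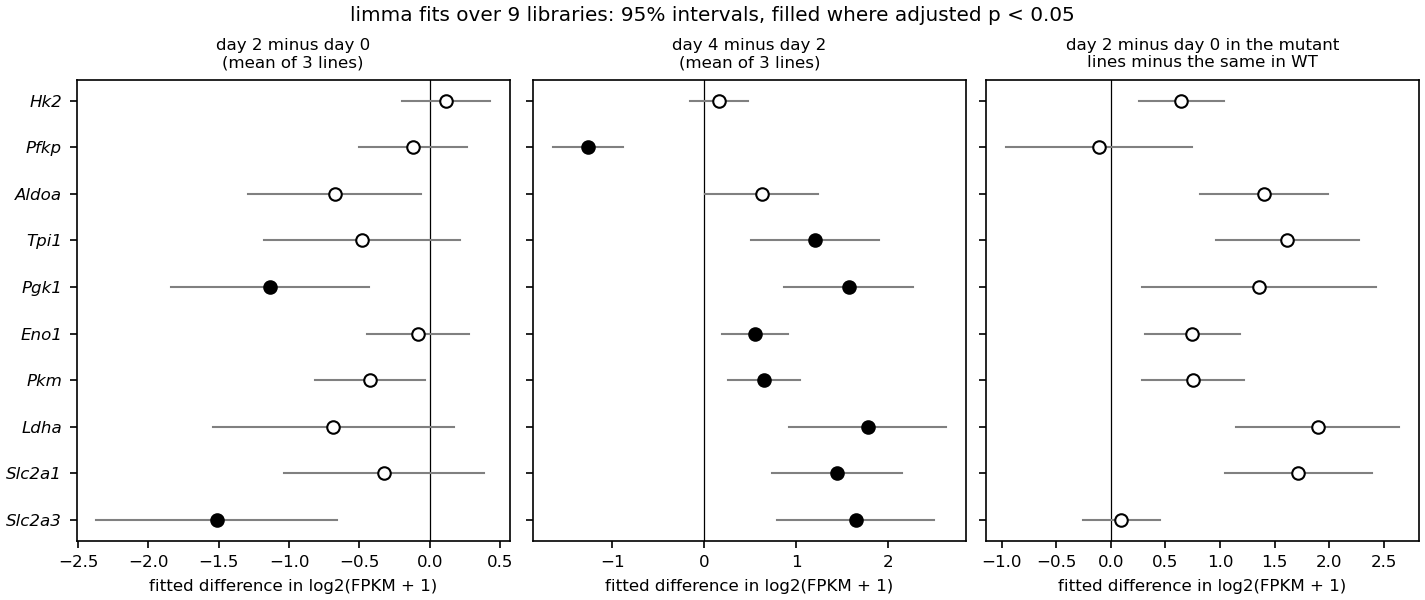
Fitted differences in log2(FPKM + 1) for the 10 genes with 95% intervals, for day 2 minus day 0 and day 4 minus day 2 over 3 lines and for the excess of the mutant lines' day 0 to day 2 change over that of WT, filled where adjusted p is under 0.05. In the day 4 panel 7 genes are filled to the right and Pfkp to the left, and in the right-hand panel 8 intervals lie right of 0 with none filled.

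Averaged over the days, none of the 10 genes passed the test between lines. For 1KO against WT 0 of 10 were called, with 0 at an unadjusted limma p under 0.05, where 2.51% of all genes were called, and differences ran from -0.07 for Slc2a3 to 0.42 for Ldha. For 1KO+1CI against WT 0 of 10 were called, again with 0 at an unadjusted p under 0.05 (background 4.82%, with 283 genes higher and 357 lower, or 358 and 297 with a common sum), and differences ran from -0.24 for Pgk1 to 0.23 for Pfkp. For 1KO+1CI against 1KO it was 0 of 10 (background 0.00753%, with 0 of the 10 at an unadjusted p under 0.05), from -0.33 for Pgk1 to 0.00029 for Slc2a3. A 95% interval such as that of Ldha for 1KO against WT, -0.43 to 1.28, still holds differences above 2-fold. Without WT at day 4, 1 of the 10 was called in 1KO against WT (3.51% of all genes) and 1 in 1KO+1CI against WT (5.81%). The day 0 and day 2 differences from WT, which had opposite signs for most of the 10 genes, enter this average together, and the fit takes them as error.

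The rest of the pathway was read from lists of related genes. Over all genes, 17.5% were called for day 2 against day 0, 25.8% for day 4 against day 0 and 25.7% for day 4 against day 2. Calls in the lists here and below stand beside these shares, and counts near them are not read as traits of a list. Of 15 other glycolytic enzymes, 12 could be tested. From day 2 to day 4, 3 rose, the liver-type phosphofructokinase Pfkl by 1.05, the bisphosphoglycerate mutase Bpgm by 0.68 and the phosphoglycerate mutase Pgam1 by 0.57, and none fell. From day 0 to day 2, Aldoc fell by 1.62 and Hk1 by 1.22, while Pfkm (0.66) and Eno3 (0.76) rose. Hk1, the hexokinase of most adult tissues, was also lower at day 4 than at day 0, by -1.40, and Eno3 was higher, by 0.99. Pfkm, the muscle-type phosphofructokinase, was lower in 1KO (-0.75, adjusted p = 0.0458) and in 1KO+1CI (-0.89, 0.0170) than in WT. In these contrasts 2.51% and 4.82% of all genes were called. The 334 calls over all genes for 1KO against WT became 14, 18 and 16 without 1KO at day 0, 2 or 4, so calls in that contrast are fragile. Gapdh had the largest positive difference for 1KO against WT (1.30, adjusted p = 0.523). Of the 7 other hexose carriers 2 could be tested and neither passed, with Slc2a8 at -0.35 and Slc2a4 at 0.17 for day 4 against day 0.

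Lactate leaves cells through monocarboxylate carriers. Slc16a3 (MCT4), the carrier of strongly glycolytic cells, was at 85.6, 26.4 and 193 FPKM in WT, 59.4, 102 and 264 FPKM in 1KO, and 1KO+1CI had 43.8, 89.6 and 179 FPKM. All 3 tested genes of lactate transport rose from day 2 to day 4, Slc16a3 by 1.73, Slc16a1 by 0.70 and the carrier chaperone Bsg by 0.46. The change of Slc16a3 from day 0 to day 2 was 2.55 higher in the mutant lines than in WT (adjusted p = 0.0135). That of Pfkl was 1.74 higher (adjusted p = 0.0333). In this contrast 0.753% of all genes were called. Both calls were lost without 1KO at day 2 (adjusted p = 0.0969 and 0.158) and without 1KO+1CI at day 2 (0.137 and 0.259), and that of Pfkl with no minimum level (0.0518) and without the trend in limma (0.0728). In those runs without a day 2 library limma called 0 of 13288 genes, with 1575 and 1205 at an unadjusted p under 0.05. Between day 0 and day 4 Slc16a3 rose by 1.77 and Slc16a1 by 0.36, and Bsg had 0.20. For 1KO against WT, Slc16a3 had 0.61 and Bsg 0.18, neither passing. In the 5-gene family that sets the level of an allosteric activator of phosphofructokinase, Pfkfb3 rose by 0.97 and Tigar fell by 0.63 between day 0 and day 4, and for 1KO against WT the values ran from -0.51 for Pfkfb1 to 0.20 for Pfkfb4, none passing.

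Known regulators of the pathway were measured as RNA. From day 0 to day 2, Epas1 (HIF2A) rose by 1.56, Myc by 1.19 and Hif1a by 0.56. These genes and Arnt, the HIF partner, fell from day 2 to day 4, while Lin28a and Lin28b, RNA-binding proteins of early cells, rose by 0.59 and 0.47. Hif1a RNA was at 27.0 to 39.0 FPKM at day 0, 47.6 to 51.2 FPKM at day 2 and 33.3 to 44.5 FPKM at day 4, so that its day 2 values lay above all others. For 1KO against WT none of the regulators named here passed, and Mycn had -0.14 and Myc 0.79. HIF activity is set mostly through protein stability, which RNA does not show. Of 18 other known HIF targets, 17 could be tested. From day 0 to day 2, 6 fell, P4ha1 (-1.16), Ndrg1 (-1.09), P4ha2 (-0.96), Egln1 (-0.90), Higd1a (-0.61) and Ero1l (-0.60), and Stc2 rose by 1.59. From day 2 to day 4, 7 rose, from Egln1 (1.46), the oxygen-sensing prolyl hydroxylase, to Ddit4 (0.86), and the histone demethylase Kdm3a fell by 0.98. Over all genes 17.5% and 25.7% were called in these steps, in that order. Egln1 was at 21.8, 5.54 and 21.0 FPKM in WT, 10.9, 7.90 and 22.6 FPKM in 1KO, and 1KO+1CI had 9.73, 6.73 and 16.9 FPKM. The day 0 to day 2 change of Egln1 was 1.35 higher in the mutant lines (adjusted p = 0.0477), a call lost without 1KO (0.192) or 1KO+1CI (0.339) at day 2, without either at day 0 (0.0750 and 0.0583), with no minimum level (0.0730) and without the trend (0.0785). Egln1 was the 1 call among the 17 tested in that contrast, where 0.753% of all genes were called. For 1KO against WT no HIF target passed, with values from -0.35 for Ddit4 to 0.38 for Ndrg1.

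The genes whose course was most like the median course of the 10, by root mean square distance between centred log2(FPKM + 1) values over the 9 libraries, were Rap1gds1 (0.125), Cyp51 (0.135), Hmgcs1 (0.140), Bnip3l (0.145) and Fam162a (0.151), among 6087 genes with a mean of at least 10 FPKM. For scale, the 10 genes themselves lay at 0.111 for Pkm to 0.951 for Pfkp from their own median course. Cyp51 and Hmgcs1 are enzymes of cholesterol synthesis, and Bnip3l is a mitophagy receptor. Fam162a was at 152, 71.1 and 194 FPKM in WT, 105, 112 and 251 FPKM in 1KO, and 1KO+1CI had 108, 122 and 159 FPKM.

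**Figure D4:**
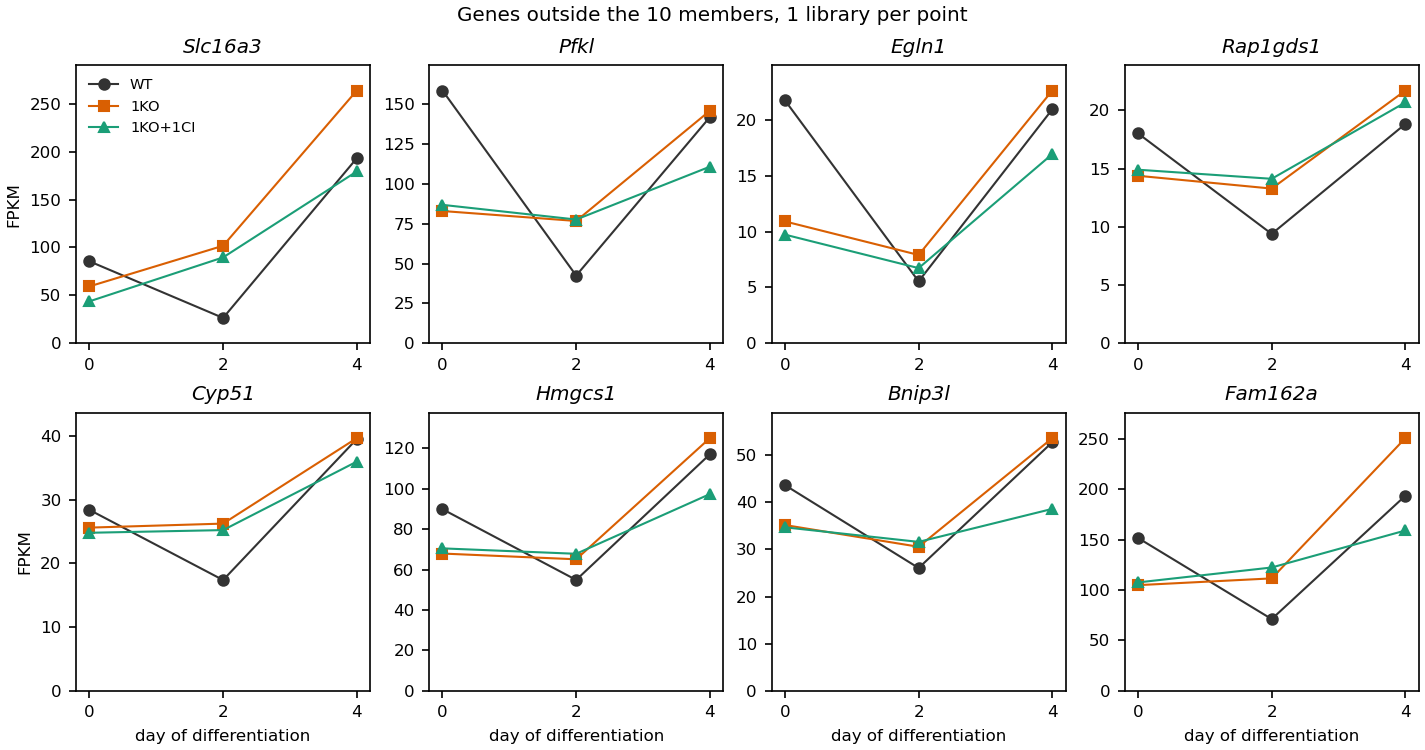
FPKM (linear axes from 0) against day for 3 related genes with a different day 0 to day 2 change in the mutant lines (Slc16a3, Pfkl, Egln1) and for the 5 genes nearest the median course of the 10, with 1 point per library and symbols as WT circles, 1KO squares and 1KO+1CI triangles. WT has its lowest value at day 2 in all 8 panels, for example 26.4 FPKM for Slc16a3.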

How the data were processed

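Poly(A) RNA of 9 mouse ESC cultures was sequenced as paired ends. Per the study's methods and the submitters' processing notes, the authors trimmed reads with Trim Galore, aligned them to mm10 with HISAT2, handled alignments with SAMtools and deposited FPKM per gene from HOMER. Versions, gene annotation, strand setting and treatment of reads with several matches were not given in the sources used here. A second deposited table, of repeats, was not used. The 10 members and all lists were chosen with earlier results of these data known.

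Of 15095 rows, 21 without a usable gene name (20 read as dates) were left out. The 13288 genes with at least 1 FPKM in some library were fitted as log2(FPKM + 1) with limma 3.58.1 (trend; R 4.3.3), with line and day as terms (4 residual degrees of freedom) and, for the course of the mutant lines against WT, with a mutant-by-day term (2). P-values were adjusted by Benjamini-Hochberg over all genes, with the threshold at 0.05. They measure spread around these terms, which may be technical or line-specific, since no condition was repeated. Differences between libraries past 0.5 log2 were counted without a test. Related genes named are those passing the test, up to 6 a list, and those with the largest and smallest difference for day 4 against day 0 and 1KO against WT. 1 gene of the regulator list is not reported here. The fits were also run on simulated data with flat means, independent errors and planted day 2 shifts. For the fit with line and day these data held no line-specific course, so they do not check how such courses enter its error. Read depth is unknown. If the smallest step of FPKM is 1 read, depth would be 20150000 to 28030000 reads, but 45.5% to 51.0% of genes with 1 transcript then gave whole reads within 0.1 (18.3% to 21.8% at a wrong depth), so no counts were recovered. Promoter windows were taken from RefSeq (GRCm38.p6) and gene positions from GENCODE on the same build. Other scalings, minimum levels, pseudocounts, a robust prior and leaving out each library were tried. Python 3.11.15 was used for tables.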

Additional observations from a re-analysis of the deposited data

Results flagged for a closer look

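Among the 10 genes and the related metabolic genes, 4 had a difference between the lines that was tested directly, as a change over days in the lines without active DNMT1 minus the same change in WT. The change from day 0 to day 2 differed for Slc16a3 by 2.55, for Pfkl by 1.74 and for Egln1 by 1.35 on the log2(FPKM + 1) scale, all higher in 1KO and 1KO+1CI. The change from day 0 to day 4 differed for Slc2a3 by 1.99, in the same direction. Over all genes, 0.753% were called for the day 2 course and 3.12% for the day 4 course. The calls were 1 of 3 tested genes of lactate transport, 1 of 12 other glycolytic enzymes, 1 of 17 other HIF targets and 1 of the 10. The other metabolic lists had no call in either course. WT enters each of the 4 results with 1 library per day. The calls of Slc16a3, Pfkl and Egln1 were lost when the day 2 library of 1KO or of 1KO+1CI was left out, where limma called 0 of 13288 genes (1575 and 1205 at an unadjusted p under 0.05).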

How the results depend on the processing

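Of 132 counts of members called, 106 stayed within 1.5 times the value reported and 26 did not. Of 272 medians over the 10 genes, 2 moved by more than 0.33, the residual SD of their median course around line and day. That bound is larger than some of the medians, such as 0.11 for 1KO against WT. A changed minimum level cannot move a median of these genes, so this count is a weak check. Of 810 results for single genes, 713 stayed on their side of the threshold, 36 passed it newly, 39 lost it and 22 changed sign. With libraries left out in turn, the count of called members ran from 0 to 2 for day 2 against day 0, from 1 to 6 for day 4 against day 0, from 1 to 8 for day 4 against day 2, from 0 to 1 for 1KO against WT and for 1KO+1CI against WT, from 0 to 8 for the day 2 course of the mutant lines against WT, and from 1 to 4 for the day 4 course. The share of all genes called moved in the same runs. It ran from 3.81% to 22.1% for day 2 against day 0 and from 10.6% to 30.1% for day 4 against day 0. For day 4 against day 2 it was 8.98% to 32.6%. For 1KO and 1KO+1CI against WT it was 0.105% to 3.51% and 0.595% to 5.81%. For the courses it was 0% to 7.41% (day 2) and 0.0978% to 9.08% (day 4). The median over the 10 genes ran from -0.72 to -0.11 for day 2 against day 0 and from 0.57 to 1.17 for day 4 against day 2. For the day 2 course the count of 0 became 2 with a minimum of 10 FPKM and 1 with a common sum, with median-ratio scaling and with the robust prior, whose cause was not tested. The sign changes all came from leaving out a library. For day 2 against day 0 the range was -0.00059 to 0.30 for Hk2, -0.32 to 0.11 for Pfkp, -0.23 to 0.11 for Eno1 and -0.70 to 0.11 for Slc2a1. For day 4 against day 0 it was -0.29 to 0.24 for Aldoa and -0.19 to 0.78 for Slc2a3. For the day 2 course it was -0.54 to 0.32 for Pfkp, and for the day 4 course -0.56 to 0.30 for Pfkp, -0.083 to 1.00 for Pgk1, -0.089 to 0.22 for Pkm and -0.20 to 0.52 for Ldha. Each condition has 1 library, so no spread within a condition could be measured. Line was a term in the fit of the day contrasts, so these differences were taken within lines. The day 2 course could not be estimated without WT at day 0 or day 2, nor the day 4 course without WT at day 0 or day 4. The leave-one-out and robust-prior runs of the courses were chosen after seeing the data.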

Other observations

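Further pathways that branch from glycolysis moved gene by gene. Over all genes, 17.5% were called for day 2 against day 0, 25.8% for day 4 against day 0 and 25.7% for day 4 against day 2. The counts in these lists are therefore not read as traits of a pathway. Of 14 genes for the entry of pyruvate into mitochondria, Pcx, the pyruvate carboxylase, rose by 0.91 from day 0 to day 2 and fell by 1.24 from day 2 to day 4, and Pdhb, a pyruvate dehydrogenase subunit, rose by 0.54 and fell by 0.58. The pyruvate dehydrogenase kinase Pdk4 fell by 0.94 and the phosphatase Pdp1 by 0.47 between day 0 and day 4, while Dld rose by 0.29, and the other kinase Pdk3 rose by 0.37 from day 2 to day 4. For 1KO against WT the differences of this list ran from -0.43 for Pdk4 to 0.10 for Pdk3, none passing.

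Of 7 genes of the pentose phosphate pathway, the transketolase Tkt fell by 0.40 from day 0 to day 2 and rose by 0.46 from day 2 to day 4, and Rpe, the pentose epimerase, moved the other way (0.65, then -0.52). G6pdx, which starts the pathway, rose by 0.45 from day 0 to day 2. Between day 0 and day 4 no gene of this list passed, with Taldo1 at -0.14 and G6pdx at 0.29. Of the gluconeogenesis genes, 3 of 6 could be tested, and Pck2, the mitochondrial phosphoenolpyruvate carboxykinase, rose by 2.02 from day 0 to day 2 and stayed 1.86 above day 0 at day 4, from 5.45 to 6.03 FPKM at day 0 to 16.8 to 30.7 FPKM at day 4. Fbp2 fell by 0.89 from day 2 to day 4. Of 8 glycogen genes, the phosphorylase Pygl (-1.14) and Pgm1 (-0.81) fell from day 0 to day 2, and Pygl (0.82), the branching enzyme Gbe1 (0.76), Pygb (0.44) and Pgm1 (0.39) rose from day 2 to day 4 while the synthase Gys1 fell by 0.54. Between day 0 and day 4, Gbe1 rose by 0.64 and Pygm fell by 0.73. For 1KO against WT none of these 3 lists had a gene that passed, with values from -0.45 for Pgls to 0.33 for Pgd, from -0.05 for Pck2 to 0.35 for Fbp2 and from -0.21 for Gys1 to 0.41 for Ugp2.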
